A study of Mus musculus with 11 samples.

Results

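The transcripts of 10 genes that encode the laminin trimer, the nidogens and the basement membrane heparan sulfate proteoglycans were followed in mouse embryonic fibroblasts that carried both, 1 or no intact copy of the β-actin gene Actb. The genes were taken by symbol from the deposited tables of 46469 gene symbols: the laminin α chains Lama1, Lama4 and Lama5, the β chains Lamb1 and Lamb2, the γ chain Lamc1, the nidogens Nid1 and Nid2, and the proteoglycans Hspg2 (perlecan) and Agrn (agrin). Each of the 10 had a single locus, and 9 of them, all except Lama1, were among the 14940 genes with at least 1 FPKM in at least 3 libraries that were tested. Poly(A)-selected RNA was sequenced in 4 libraries of Actb +/+ cells (WT), 4 of Actb +/- cells (Het) and 3 of Actb -/- cells (KO, replicates 1, 3 and 4), all of the BALB/c strain and from 10.5 day embryos, grown in high-glucose medium with serum and without other treatment. The design text calls the replicates biological but does not state if they stem from separate embryos or cultures, and the labels do not describe how the Actb allele was made. The p-values therefore measure the spread between these libraries, which may be technical. The 3 comparisons share the same groups: KO against WT, Het against WT and KO against Het, with Het also set against the midpoint of the other groups.

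Basement membranes are thin matrix sheets that underlie epithelia and endothelia and surround muscle, fat and nerve. A laminin is a trimer of an α, a β and a γ chain. It binds integrins and dystroglycan at the cell surface and polymerises there, nidogens bridge it to the type IV collagen network, and perlecan and agrin add heparan sulfate chains that hold growth factors. Fibroblasts secrete several of these proteins, in particular nidogens, perlecan and laminin β and γ chains, and the γ1 chain encoded by Lamc1 is part of most laminin trimers.

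Actb itself was at 1076 to 1525 FPKM in WT, 815 to 868.3 in Het and 44.8 to 47.1 in KO, so its level followed the labels. Sequencing depth, read from low-expressed genes, ranged from 60.7% to 125% of that of WT replicate 1. The WT libraries differed from each other along the GC content of transcripts: over the fifth of tested genes with the highest GC content, the median deviation from the WT mean was -0.31 in replicate 1, 0.10 in replicate 2, -0.16 in replicate 3 and 0.35 in replicate 4 (log2), while Het and KO libraries stayed between -0.12 and 0.14. Results are therefore also given after a correction along GC content, which was added after the data had been seen. It also takes out differences between the genotypes that follow GC content. Xist was at 43.8 FPKM or more in every Het library and at 0.06 or less in every WT and KO library, so the sex chromosome state and the heterozygous genotype cannot be told apart. The Y-linked genes Ddx3y, Kdm5d, Uty and Eif2s3y were near 0 in all groups, with the highest mean at 0.172 FPKM for Uty in KO. The labels give no sex. Of 8 fibroblast markers, whose summed level was 1460 to 1910 FPKM in WT, 2300 to 2620 in Het and 3560 to 4210 in KO, Pdgfra and Thy1 were under 1 FPKM in all WT libraries and Thy1 in all Het libraries. Col1a2 (means of 6.83 FPKM in WT, 192 in Het and 11.5 in KO) and Pdgfra (0.211, 4.31 and 0.959) were highest in Het. The other fibroblast markers had their highest means in KO. All 8 endothelial markers stayed under 1 FPKM in every library. Epithelial markers summed to 28.9 to 70.1 FPKM in WT, 27.5 to 39.0 in Het and 29.3 to 46.7 in KO. This was mainly Krt19 (means of 42.7, 24.2 and 37.8 FPKM), followed by Krt18 in Het (1.69, 6.50 and 0.214). Epcam, Cdh1, Krt8, Cldn3, Cldn4 and Esrp1 stayed under 1 FPKM throughout. Summed smooth muscle and pericyte markers, led by Acta2, were at 96.9 to 111 FPKM in WT, 235 to 250 in Het and 7100 to 7880 in KO, with Myh11, Rgs5 and Kcnj8 under 1 FPKM throughout. The pericyte marker Cspg4 on that list went the other way, with means of 3.82 FPKM in WT, 1.91 in Het and 0.0129 in KO. Summed markers of parietal and primitive endoderm, cells that make much laminin, were at 45.1 to 52.8 FPKM in WT, 66.5 to 72.8 in Het and 24.6 to 27.5 in KO, with Sox17 and Sox7 under 1 FPKM throughout. Most of that sum was Dab2 (means of 41.1, 54.9 and 17.2 FPKM), whereas Thbd was higher in both other groups than in WT (0.478, 3.69 and 4.195), Gata6 was highest in WT and lowest in KO (3.39, 2.42 and 0.888) and Gata4 was highest in Het (3.32, 7.09 and 3.34). Skeletal and cardiac muscle markers summed to 2.69 to 9.02 FPKM in WT, 4.22 to 7.07 in Het and 25.6 to 27.6 in KO, mainly through Tnnt2 in KO, with Myod1, Myog, Ckm and Myh3 under 1 FPKM throughout. Adipocyte markers summed to 5.05 to 7.08 FPKM in WT, 4.25 to 6.27 in Het and 15.3 to 20.8 in KO, mainly through Pparg, with Adipoq, Plin1, Cidec, Lep and Cfd under 1 FPKM throughout. The part of these marker shifts in the results below was not tested. In bulk RNA, fewer cells of a type and less RNA per cell cannot be told apart.

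The promoter windows of the 4 genes on which the results turn are shown because these genes moved in 2 different ways: Lamb1 and Nid1 were lowest in Het and highest in KO, whereas Lama5 and Hspg2 had their highest means in KO and their lowest in WT. Each window runs from 250 bases before to 50 bases after a RefSeq transcript start on GRCm38.p6, and capitals mark GGGCGG, a GC box that Sp-family factors bind, on either strand (CCGCCC where the reverse strand carries it). The Lamb1 window is chr12:31265043-31265342 on the plus strand, the Nid1 window chr13:13437352-13437651 on the plus strand, the Lama5 window chr2:180225810-180226109 on the minus strand and the Hspg2 window chr4:137468553-137468852 on the plus strand.
Lamb1: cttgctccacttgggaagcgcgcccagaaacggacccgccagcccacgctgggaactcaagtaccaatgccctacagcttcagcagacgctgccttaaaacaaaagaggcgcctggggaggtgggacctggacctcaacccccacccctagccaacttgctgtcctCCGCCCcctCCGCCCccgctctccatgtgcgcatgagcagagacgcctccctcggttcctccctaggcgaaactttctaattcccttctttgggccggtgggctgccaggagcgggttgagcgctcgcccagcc
Nid1: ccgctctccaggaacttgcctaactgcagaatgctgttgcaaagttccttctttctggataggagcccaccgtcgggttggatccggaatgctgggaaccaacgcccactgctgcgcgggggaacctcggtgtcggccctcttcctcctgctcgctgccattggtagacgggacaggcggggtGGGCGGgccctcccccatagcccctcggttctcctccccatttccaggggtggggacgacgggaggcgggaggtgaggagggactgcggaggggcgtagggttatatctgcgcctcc
Lama5: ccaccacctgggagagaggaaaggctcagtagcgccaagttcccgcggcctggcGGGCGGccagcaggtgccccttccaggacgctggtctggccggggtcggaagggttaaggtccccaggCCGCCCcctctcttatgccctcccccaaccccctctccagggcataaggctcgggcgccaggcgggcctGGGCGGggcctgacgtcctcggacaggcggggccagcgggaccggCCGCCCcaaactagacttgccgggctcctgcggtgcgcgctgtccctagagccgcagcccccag
Hspg2: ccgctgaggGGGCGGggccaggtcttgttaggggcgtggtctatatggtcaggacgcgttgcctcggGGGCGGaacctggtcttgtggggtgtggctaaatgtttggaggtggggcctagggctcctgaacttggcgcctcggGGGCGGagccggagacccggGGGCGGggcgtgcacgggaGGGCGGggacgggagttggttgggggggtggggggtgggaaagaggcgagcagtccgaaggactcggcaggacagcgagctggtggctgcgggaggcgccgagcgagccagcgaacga
GGGCGG occurred 2 times in the Lamb1 window, 1 time in Nid1, 4 times in Lama5 and 5 times in Hspg2, and 35.7% of all 32851 RefSeq promoter windows held it on either strand. The GC content of the windows was 63.67% for Lamb1, 64.67% for Nid1, 72.67% for Lama5 and 70.33% for Hspg2, against a median of 52.67% over all windows. CATTCC, the letters read by TEAD factors, was found once and in the Nid1 window, where its reverse complement lies in the lower-case stretch ccggaatgctggg, against 14.7% of all windows, and it does not overlap the GGGCGG match there. TGANTCA, the AP-1 motif, and the CArG box of serum response factor were in none of the 4 windows, against 7.81% and 1.63% of all windows. In all, 6 of the 10 genes had a window in the table (Lama5, Hspg2, Agrn, Lamb2, Lamb1 and Nid1). Of those not shown, Agrn had 12 matches of GGGCGG in 1 window and 2 in another, and Lamb2 had 0. Neither Agrn nor Lamb2 passed as higher in KO against WT. The bearing of these motifs on the levels was not tested.

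Nid1 was the most abundant of the 10 transcripts in every genotype, at a mean of 60.4 ± 3.20 FPKM in WT, 51.6 ± 2.27 in Het and 78.6 ± 2.26 in KO (SD, n = 4, 4 and 3). FPKM is read density per transcript length, so that levels of different genes can be set side by side, though only roughly. The levels were not corrected along GC content. Hspg2 was below Lamb1 in WT replicate 1 (13.5 against 38.3 FPKM) but above it in WT replicate 4 (48.5 against 41.9). In WT, Lamb1 (40.9 FPKM) and Lamc1 (35.2) came next, followed by Hspg2 (27.4), Lamb2 (20.3), Nid2 (13.3), Agrn (9.83) and Lama5 (5.38), and Lama1 (0.173) and Lama4 (0.155) were far lower. The ranges of neighbours in this order overlapped from Lamc1 down to Lama5, and again between Lama1 and Lama4. In Het the order below Nid1 was Hspg2, Lamc1, Lamb1, Nid2, Lamb2, Agrn and Lama5, in which Hspg2 overlapped Lamc1, Lamb1 overlapped Nid2 and Agrn overlapped Lama5. In KO it was Hspg2, Lamb1, Lamc1, Lamb2, Lama5, Nid2 and Agrn, in which Hspg2 overlapped Lamb1 and Lama5 overlapped Nid2. The deposited 95% intervals reached, at the median library, 3.31% of the level to either side for Nid1 and 3.76% for Lamc1, but 35.4% for Lama4 and 105% for Lama1, which limits what the α1 and α4 values can show.

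**Figure D1:**
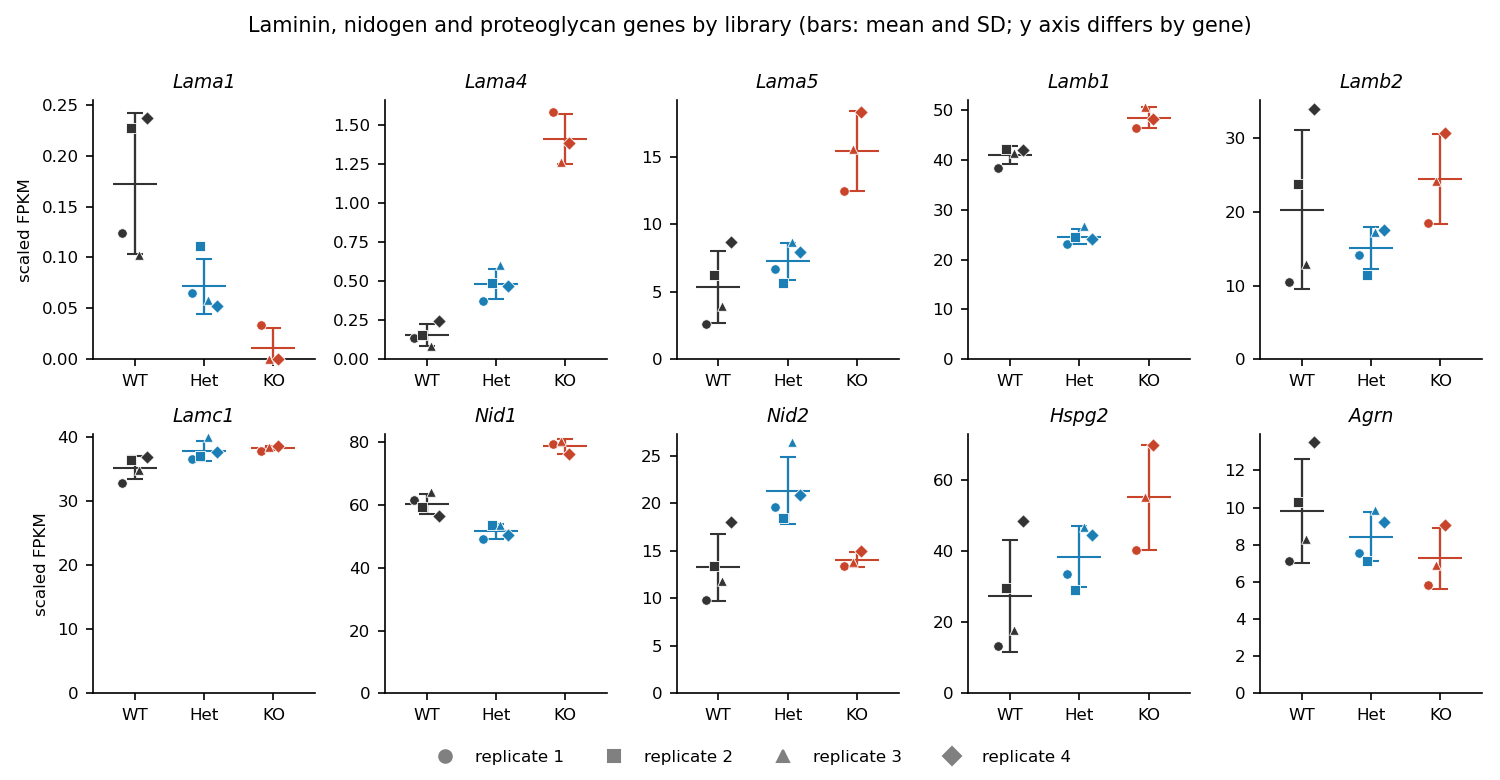
Scaled FPKM (y axis, linear from 0, scale differing by gene) of the 10 genes in each library of WT, Het and KO cells, with marker shapes for replicate numbers and bars for the mean and SD. Lamb1 and Nid1 separate the 3 genotypes without overlap, and in WT replicate 4 is highest and replicate 1 lowest for Lama5, Lamb2, Nid2, Hspg2 and Agrn.

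Among the laminin α chains, Lama5 and Lama4 were higher in KO cells. Lama5 (chr2:180176373-180225905) encodes the α5 chain, the most widespread α chain of adult basement membranes. Its level was 2.64, 6.22, 3.94 and 8.73 FPKM in WT replicates 1 to 4, 6.69, 5.67, 8.72 and 7.98 in Het, and 12.5, 15.6 and 18.4 in KO replicates 1, 3 and 4. All KO libraries lay above all others, and the Het values fell within the WT range. Lama5 rose in KO against WT by 1.45 ± 0.29 on the log2(FPKM + 1) scale (SE, limma adjusted p = 0.00174, n = 3 against 4) and in KO against Het by 0.99 ± 0.29 (limma adjusted p = 0.0158, n = 3 against 4), a call that was lost without KO replicate 4 (0.87, limma adjusted p = 0.0645, range over 21 alternatives 0.000122 to 0.0645). Het against WT gave a difference of 0.46 ± 0.27 (limma adjusted p = 0.193, n = 4 against 4, 95% interval -0.13 to 1.05).

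Lama4 (chr10:38965515-39110188) encodes the α4 chain of vascular, muscle and mesenchymal basement membranes. It was at 0.135, 0.157, 0.0814 and 0.246 FPKM in WT, 0.373, 0.488, 0.601 and 0.467 in Het, and 1.58, 1.26 and 1.38 in KO. The 3 groups did not overlap and lay in the order WT, Het, KO, all at a low level. Lama4 passed the filter on low values only through its KO libraries, so a difference of KO from the others was a condition of its being tested. For that reason its differences of 1.06 ± 0.09 in KO against WT and 0.70 ± 0.09 in KO against Het (SE) are given without their p. Lama4 rose in Het against WT by 0.36 ± 0.08 (SE, limma adjusted p = 0.00497). The pseudocount compresses changes this low: with 0.1 in place of 1, the KO against WT difference was 2.60 and the Het against WT difference 1.22.

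Lama1 (chr17:67697133-67822645), the α1 chain of early embryonic basement membranes, was at 0.124, 0.227, 0.102 and 0.237 FPKM in WT, 0.0651, 0.112, 0.0581 and 0.0518 in Het and 0.0334 in KO replicate 1, and it was listed at 0 in the other 2 KO libraries. It did not reach 1 FPKM anywhere and was not tested. Without the filter, its difference was -0.21 in KO against WT (limma adjusted p = 0.00464 over 31745 genes) and -0.13 in Het against WT (limma adjusted p = 0.0433).

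The β chains differed in their pattern. Lamb1 (chr12:31265148-31329644) encodes β1, the usual partner of α1, α4 and α5 in embryonic laminins. Its level was 38.3, 42.1, 41.3 and 41.9 FPKM in WT, 23.1, 24.5, 26.8 and 24.1 in Het, and 46.5, 50.6 and 48.3 in KO. Every Het library was below every WT library, and every KO library above them. Lamb1 fell by 0.71 ± 0.06 in Het against WT (SE, log2, limma adjusted p = 3.79e-06, n = 4 against 4) and rose by 0.95 ± 0.06 in KO against Het (limma adjusted p = 6.36e-07). Its rise of 0.24 ± 0.06 in KO against WT (limma adjusted p = 0.00917) depended on the scaling of the libraries, since without scaling it was 0.14 (limma adjusted p = 0.109) and with upper quartile scaling 0.19 (limma adjusted p = 0.0651), in a range of 0.0061 to 0.109 over 21 alternatives. Het lay 0.83 ± 0.05 below the midpoint of KO and WT (limma adjusted p = 4.97e-07).

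Lamb2 (chr9:108479857-108490530), the β2 chain concentrated at neuromuscular junctions and in kidney glomeruli, was at 10.5, 23.8, 12.96 and 33.9 FPKM in WT, 14.1, 11.4, 17.3 and 17.5 in Het, and 18.5, 24.1 and 30.7 in KO. The WT libraries spanned the values of both other groups, and every KO library lay above every Het library. No difference passed the test: 0.37 ± 0.34 in KO against WT (SE, limma adjusted p = 0.408), -0.28 ± 0.32 in Het against WT (limma adjusted p = 0.506) and 0.65 ± 0.34 in KO against Het (limma adjusted p = 0.148, 95% interval -0.10 to 1.41). The last passed with only the KO and Het libraries in the fit (0.65, limma adjusted p = 0.022) and after GC correction (0.54, limma adjusted p = 0.0268), in a range of 0.022 to 0.371 over 21 alternatives.

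Lamc1 (chr1:153218922-153332786), the γ1 chain, stayed between 32.8 and 40.0 FPKM in every library. It was at 32.8, 36.3, 34.7 and 36.9 FPKM in WT, 36.5, 36.9, 40.0 and 37.7 in Het, and 37.8, 38.4 and 38.5 in KO. The groups overlapped except that all KO libraries were above all WT libraries. Its differences of 0.12 ± 0.06 in KO against WT (SE, limma adjusted p = 0.105, 95% interval -0.00 to 0.24), 0.10 ± 0.05 in Het against WT (limma adjusted p = 0.141, 95% interval -0.01 to 0.22) and 0.02 ± 0.06 in KO against Het (limma adjusted p = 0.823, 95% interval -0.11 to 0.14) did not pass. The sign of the last turned without scaling (-0.09), with upper quartile scaling (-0.05) and after GC correction (-0.01).

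Summed by class in each library, α chain transcripts (Lama1 to Lama5) were the scarcest and changed most in relation to the γ chains. The α sum was 5.84 ± 2.80 FPKM in WT, 8.39 ± 1.32 in Het and 17.1 ± 2.87 in KO, while the γ sum was 37.7 ± 1.91, 38.7 ± 1.72 and 40.0 ± 0.32 (SD, n = 4, 4 and 3). The α sum thus amounted to 8.49% to 23.6% of the γ sum in WT, 18.1% to 24.0% in Het and 35.7% to 49.9% in KO, with KO apart from both other groups. The β sum (Lamb1 to Lamb3) was 1.40 to 1.94 times the γ sum in WT, 0.957 to 1.09 times in Het and 1.64 to 1.98 times in KO, so that Het was lower than every library of the other groups. Lama5 made up 91.4% ± 2.30 of the α sum in WT, 86.3% ± 2.87 in Het and 90.5% ± 2.37 in KO, and the share of Lama4 was 2.84% ± 1.15, 5.79% ± 1.05 and 8.50% ± 2.31. These sums and shares are descriptions without a test, and they describe transcripts, not assembled trimers. They were not corrected along GC content. In WT replicates 1 to 4 the α sum was 8.49%, 17.4%, 11.5% and 23.6% of the γ sum, the same order as the deviation of high-GC genes. The ratio of β to γ had that order too (1.40, 1.72, 1.47 and 1.94).

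**Figure D2:**
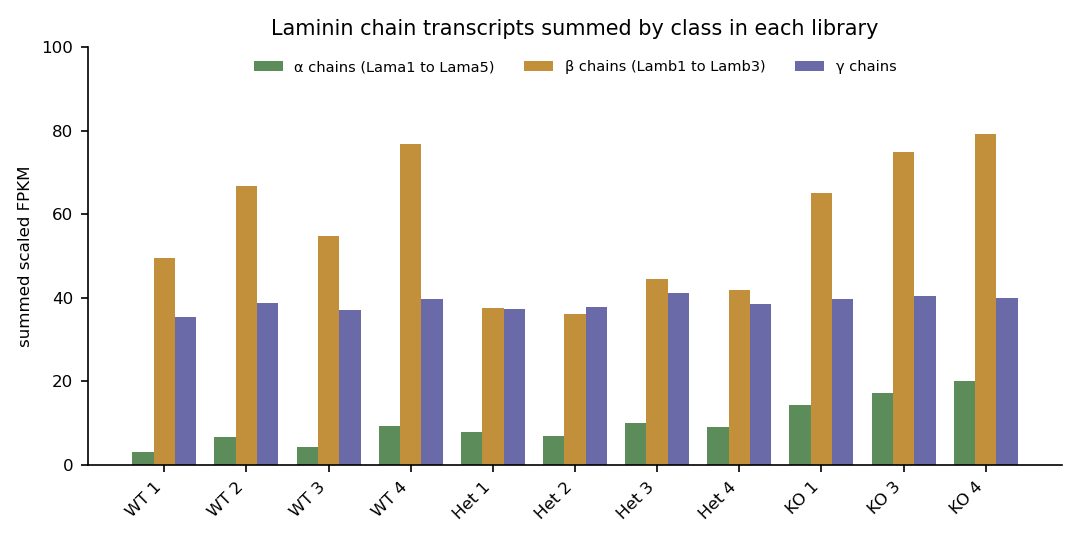
Summed scaled FPKM (y axis, linear from 0) of laminin α, β and γ chain genes in each of the 11 libraries (x axis). The γ sums lie between 35.2 and 41.1 FPKM throughout, the α sums are 14.2 or more in KO and 9.89 or less elsewhere, and the β sums are 44.4 or less in Het and 49.4 or more elsewhere. The values are not corrected along GC content.

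The nidogens, which link laminin to collagen IV, moved in opposite directions in Het cells. Nid1 (chr13:13437602-13512275) was at 61.6, 59.3, 64.0 and 56.5 FPKM in WT, 49.0, 53.5, 53.5 and 50.4 in Het, and 79.4, 80.4 and 76.1 in KO. The 3 groups did not overlap, with Het lowest and KO highest. Nid1 fell by 0.22 ± 0.05 in Het against WT (SE, log2, limma adjusted p = 0.00627) and rose by 0.38 ± 0.06 in KO against WT (limma adjusted p = 0.0003) and by 0.60 ± 0.06 in KO against Het (limma adjusted p = 1.13e-05). Het was 0.41 ± 0.05 below the midpoint (limma adjusted p = 5.15e-05).

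Nid2 (chr14:19751257-19811787) was at 9.84, 13.4, 11.8 and 18.04 FPKM in WT, 19.6, 18.4, 26.4 and 20.9 in Het, and 13.4, 13.8 and 15.01 in KO. All Het libraries were above all others, although WT replicate 4 came close, and KO lay within the WT range. Nid2 rose by 0.66 ± 0.16 in Het against WT (SE, log2, limma adjusted p = 0.00616), and it stood 0.61 ± 0.14 above the midpoint (limma adjusted p = 0.00513). It fell by 0.55 ± 0.17 in KO against Het (limma adjusted p = 0.0223), a call lost without the filter (limma adjusted p = 0.0525), without Het replicate 3 (0.0592), without KO replicate 1 (0.0675) and without KO replicate 3 (0.0637), in a range of 0.000715 to 0.0675 over 21 alternatives. KO against WT gave 0.11 ± 0.17 (limma adjusted p = 0.635), and its sign turned after GC correction (-0.01) and without WT replicate 1 (-0.01). The ratio of Nid1 to Nid2 was 3.13 to 6.26 in WT, 2.02 to 2.90 in Het and 5.07 to 5.91 in KO. It was not corrected along GC content, and in WT it was highest in replicate 1 and lowest in replicate 4.

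Of the proteoglycans, perlecan transcripts were higher in KO and agrin transcripts were not. Hspg2 (chr4:137468764-137570630) encodes perlecan, a large core protein that carries heparan sulfate. It was at 13.5, 29.7, 17.7 and 48.5 FPKM in WT, 33.5, 29.1, 46.7 and 44.6 in Het, and 40.4, 55.3 and 69.8 in KO. The WT libraries were the most scattered, and WT replicate 4 lay above all Het libraries and above KO replicate 1. Hspg2 rose by 1.11 ± 0.37 in KO against WT (SE, log2, limma adjusted p = 0.0285, n = 3 against 4). This call was lost with only the 2 groups in the fit (limma adjusted p = 0.0662), without the filter (0.0692) and without WT replicate 1 (0.0624), WT replicate 3 (0.0731), KO replicate 3 (0.0742) or KO replicate 4 (0.109), in a range of 0.00148 to 0.109 over 21 alternatives. Het against WT gave 0.61 ± 0.34 (limma adjusted p = 0.173) and KO against Het 0.50 ± 0.37 (limma adjusted p = 0.301).

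Agrn (chr4:156165290-156197519), the proteoglycan that clusters acetylcholine receptors at the neuromuscular junction, was at 7.15, 10.3, 8.32 and 13.6 FPKM in WT, 7.54, 7.12, 9.86 and 9.25 in Het, and 5.82, 6.92 and 9.06 in KO. The ranges of all groups overlapped. Its differences of -0.37 ± 0.20 in KO against WT (SE, limma adjusted p = 0.148), -0.17 ± 0.18 in Het against WT (limma adjusted p = 0.483) and -0.20 ± 0.20 in KO against Het (limma adjusted p = 0.448) did not pass.

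Counted over the tested genes of the 10, 5 rose and 0 fell in KO against WT, where 47.1% of all tested genes passed in either direction, 23.3% as higher and 23.8% as lower. In Het against WT, 2 rose and 2 fell against a background of 43.8% (21.7% higher, 22.1% lower), and in KO against Het, 4 rose and 1 fell against 44.2% (22.0% higher, 22.2% lower). Against the midpoint, Het was higher for 1 and lower for 2, with 44.1% of all tested genes passing (21.3% higher, 22.8% lower). Taken in either direction, these counts are near the background and are no result about the 10 genes as a group. The counts of rises in KO, against WT and against Het, include Lama4, which passed the filter through KO alone. The median log2 difference of the 9 tested genes was 0.37 in KO against WT, 0.10 in Het against WT and 0.60 in KO against Het, beside 0.01 over all tested genes in each. After GC correction the medians were 0.17, 0.05 and 0.54, beside -0.03, -0.03 and 0.00 over all genes then tested. Of all genes that passed, 49.4% were higher in KO against WT and 49.8% in KO against Het, and without scaling these shares were 37.1% and 36.5%, while the share above the midpoint went from 48.3% to 57.7%.

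**Figure D3:**
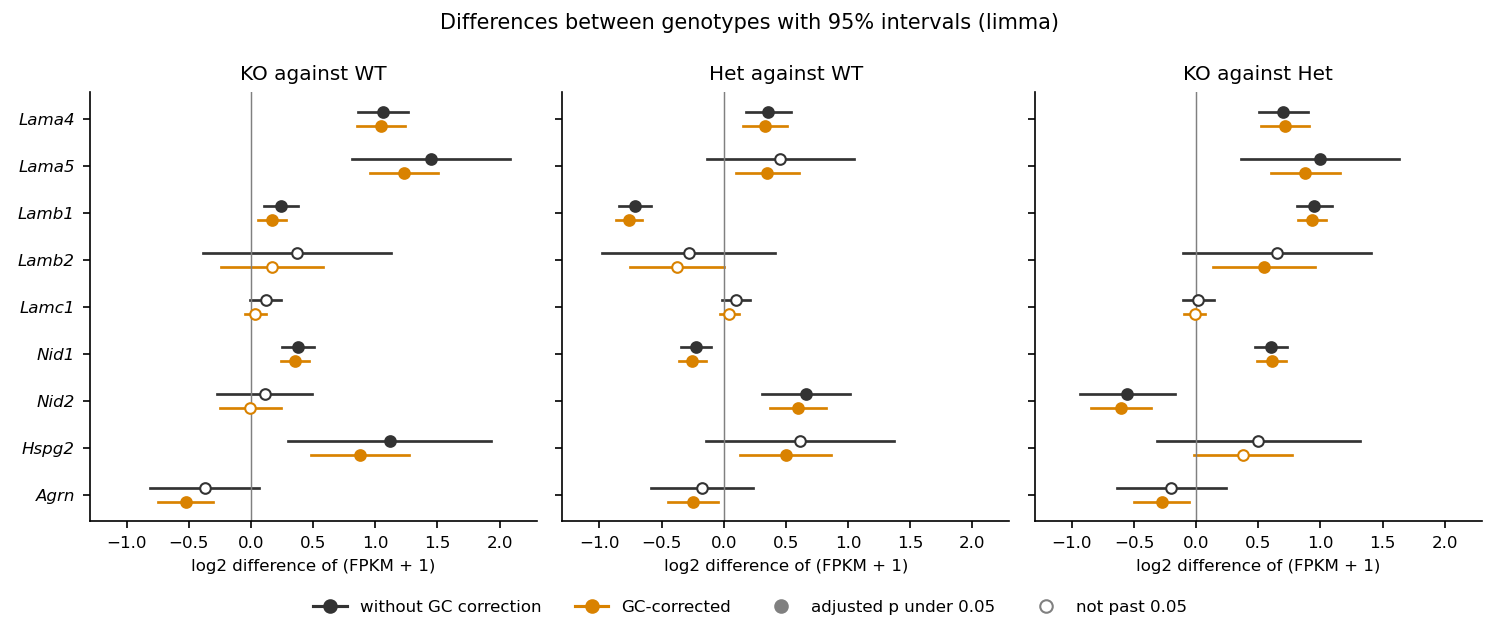
Differences on the log2(FPKM + 1) scale (x axis) with 95% intervals for the 9 tested genes in the 3 comparisons, without (dark) and with (orange) correction along GC content; filled points passed an adjusted p of 0.05 in limma. Lamb1 and Nid1 lie left of 0 in Het against WT and right of 0 in the other panels, and the intervals of Lama5, Lamb2, Hspg2 and Agrn narrow after correction. Lama4 was tested only because its KO libraries passed the filter, so its filled points in the panels with KO carry no independent weight.

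The scatter of several of the genes in WT moved with GC content. The longest annotated transcript of Hspg2 had 60.9% GC, above 97.8% of tested genes, that of Lama5 59.9%, Lamb2 58.8%, Agrn 56.5% and Nid2 54.6%, and in each the WT libraries were ordered 1, 3, 2, 4, as was the deviation of all high-GC genes. Lamc1, at 53.0% GC, had the same order within a much narrower spread, and its SD in WT went from 0.07 to 0.04 after the correction described next. Lama4, Nid1 and Lamb1 had 50.03% to 52.5% GC and other orders. After removal of each library's trend along GC content over the 13313 tested genes with a value (89.1%), the SD of the WT libraries went from 0.79 to 0.37 (log2) for Hspg2, from 0.62 to 0.25 for Lama5, from 0.74 to 0.40 for Lamb2, from 0.36 to 0.12 for Agrn and from 0.34 to 0.18 for Nid2. With the corrected values, 5 of the 9 rose and 1 fell in KO against WT, beside 57.5% of the genes then tested (26.3% higher, 31.2% lower). In Het against WT, 4 rose and 3 fell beside 55.8% (25.0% higher, 30.7% lower), and in KO against Het, 5 rose and 2 fell beside 56.1% (28.0% in each direction). The rises in KO again include Lama4, which passed the filter through KO alone. Against the midpoint, 1 was higher and 5 were lower beside 56.5% (26.1% higher, 30.3% lower).

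After correction, Lama5 rose by 1.23 ± 0.13 in KO against WT (SE, limma adjusted p = 8.26e-06, range over alternatives 8.26e-06 to 0.0102) and Hspg2 by 0.88 ± 0.18 (limma adjusted p = 0.00148). Agrn then fell by 0.53 ± 0.10 in KO against WT (limma adjusted p = 0.000874, range over 21 alternatives 0.000874 to 0.403), by 0.25 ± 0.09 in Het against WT (limma adjusted p = 0.0397, range 0.0397 to 0.93) and by 0.28 ± 0.10 in KO against Het (limma adjusted p = 0.0336, range 0.0336 to 0.831). In Het against WT, Lama5 rose by 0.35 ± 0.12 (limma adjusted p = 0.0234, range 0.0234 to 0.467) and Hspg2 by 0.50 ± 0.17 (limma adjusted p = 0.024, range 0.0161 to 0.41). Both also passed without correction when WT replicate 4 was left out, at 0.69 for Lama5 (limma adjusted p = 0.0264) and 0.94 for Hspg2 (limma adjusted p = 0.0161). The differences of Lamb1 and Nid1 kept their direction and their side of the threshold in all 3 comparisons after correction. Lama4 did so in Het against WT. Its corrected differences in KO, through which it passed the filter, were 1.05 against WT and 0.71 against Het.

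**Figure D4:**
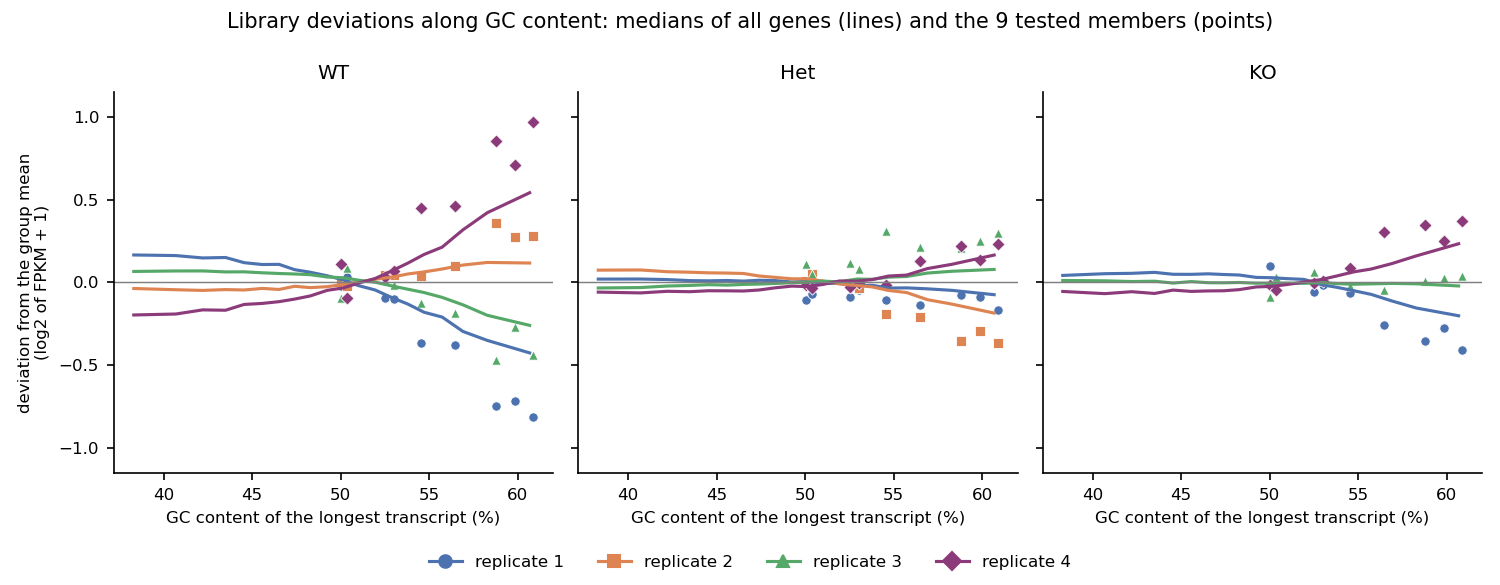
Deviation of each library from its group mean on the log2(FPKM + 1) scale (y axis) against GC content of the longest transcript in percent (x axis), in 1 panel per genotype; lines are medians over bins of all tested genes and points the 9 tested genes. In WT the lines fan out at high GC, with replicate 4 above and replicates 1 and 3 below 0, and the points of the genes above 54% GC lie on the same side as the lines of replicates 1, 3 and 4.

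The patterns closest to those of the genes with a log2 difference of at least 1 from WT were looked up by the root mean square distance over the 11 libraries. Nearest to Lama4 were Atp8b3 (0.09), which like Lama4 was under 1 FPKM on average in WT and Het, Syne2 (0.10) and Rhoj (0.10). Nearest to Lama5 was Ddr1 (0.09), a collagen receptor tyrosine kinase at 20.2 FPKM in WT, 26.5 in Het and 50.1 in KO, followed by Tnrc18 (0.14) and Rusc2 (0.14). Among the nearest to Hspg2 were Bcl9l (0.13) and Ahdc1 (0.14). These neighbours of Lama5 and Hspg2 had 59.7% to 61.2% GC, close to that of the genes they resembled.

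Of 4 tested genes for network collagens and basement membrane multiplexins, 3 rose and 0 fell in KO against WT, beside 23.3% higher and 23.8% lower over all tested genes. The counts were the same after GC correction, beside 26.3% higher and 31.2% lower. The risers were the collagen IV chain genes Col4a1 and Col4a2 and the multiplexin gene Col18a1, while the third tested collagen IV chain, Col4a5, had a difference of 0.03 (limma adjusted p = 0.718). Col4a1, the α1 chain of collagen IV, was at 96.0 ± 28.5 FPKM in WT, 90.9 ± 12.9 in Het and 242 ± 36.0 in KO and rose by 1.36 in KO against WT (limma adjusted p = 0.000341). Its partner Col4a2 rose by 1.20 (limma adjusted p = 0.00199), and Col18a1, itself a basement membrane heparan sulfate proteoglycan, rose by 2.51 (limma adjusted p = 2.2e-05) from 11.95 ± 5.05 to 70.3 ± 16.9 FPKM. Of the 4, 1 rose in Het against WT, Col4a5 by 0.43 (limma adjusted p = 0.000176), and 0 fell, beside 21.7% and 22.1% of all tested genes. After GC correction 1 rose and 1 fell, beside 25.0% and 30.7%. The list's median difference was 1.28 in KO against WT and -0.03 in Het against WT, beside 0.01 over all tested genes.

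Among 12 tested genes for other basement membrane and linker proteins, 4 rose and 4 fell in KO against WT, beside 47.1% of all tested genes passing in either direction. For Het against WT the counts were 3 and 6, beside 43.8%. After GC correction these counts were 3 and 5 in KO, and 3 and 7 in Het, beside 57.5% and 55.8%. The matricellular protein gene Smoc2 was at 1.03 FPKM in WT, 6.15 in Het and 15.5 in KO and rose by 3.02 in KO against WT (limma adjusted p = 1.18e-10) and by 1.82 in Het against WT (limma adjusted p = 6.95e-09). Its relative Smoc1 was at 0.0911 FPKM in WT, 0.0941 in Het and 9.87 in KO, and the difference of 3.32 in KO against WT is given without its p, since Smoc1 passed the filter only through KO. Fbln2, a fibulin that binds nidogen and perlecan, rose by 0.93 in KO against WT (limma adjusted p = 0.000972). Fras1, needed for adhesion of embryonic epidermis, fell by 1.13 in Het against WT (limma adjusted p = 5.31e-07).

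Of 12 tested receptor genes for laminin, agrin and perlecan, 6 rose and 5 fell in KO against WT (6 and 6 after GC correction), and 2 rose and 6 fell in Het against WT (3 and 8 after GC correction). The shares over all tested genes were again 47.1% in KO and 43.8% in Het, and 57.5% and 55.8% after correction. The syndecan genes Sdc3 and Sdc1 rose by 1.84 (limma adjusted p = 1.42e-06) and 1.17 (limma adjusted p = 8.79e-05) in KO against WT. Bcam, a receptor for the laminin α5 chain, fell by 1.31 (limma adjusted p = 0.00164), from 3.55 ± 2.06 FPKM in WT to 0.722 ± 0.21 in KO. It also fell in Het against WT, by 0.965 (limma adjusted p = 0.00735). In Het against WT, the laminin-binding integrin gene Itga7 rose by 1.19 (limma adjusted p = 8.69e-05) and Itga1, which binds collagen IV and laminin, fell by 1.001 (limma adjusted p = 9.9e-06). In KO against WT, Itga1 went the other way and rose by 0.67 (limma adjusted p = 0.000245).

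Dystroglycan binds laminin, agrin and perlecan through a sugar chain. Of 16 tested genes for its glycosylation, 3 rose and 2 fell in KO against WT, and 1 rose and 5 fell in Het against WT, both under the shares of 47.1% and 43.8% over all tested genes. Only 14 of them had a GC value. After GC correction, 1 of these 14 rose and 3 fell in KO against WT, and 1 rose and 5 fell in Het against WT. The shares over all genes then tested were 57.5% and 55.8%. Since the counts before and after correction cover different genes, their change cannot be put down to the correction. Ispd, which makes the CDP-ribitol used in that chain, rose by 0.85 in KO against WT (limma adjusted p = 4.38e-05). B4gat1, which starts its laminin-binding repeat, fell by 0.72 in KO against WT (limma adjusted p = 4.56e-05) and by 0.83 in Het against WT (limma adjusted p = 1.18e-05). Dpm1, for mannose donor synthesis, fell by 0.64 in KO against WT (limma adjusted p = 6.94e-05), and Pomgnt1 fell by 0.69 in Het against WT (limma adjusted p = 0.00012).

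For heparan sulfate, the sugar that perlecan and agrin carry, 5 of 18 tested synthesis and remodelling genes rose and 6 fell in KO against WT, and 5 rose and 4 fell in Het against WT, beside 47.1% and 43.8% of all tested genes. After GC correction, 5 rose and 8 fell in KO, and 6 rose and 6 fell in Het, beside 57.5% and 55.8%. Hpse, the heparanase that cleaves the chains, was at 9.67 ± 1.27 FPKM in WT, 5.41 ± 0.45 in Het and 0.241 ± 0.10 in KO, and it fell by 3.10 in KO against WT (limma adjusted p = 3.48e-09) and by 0.73 in Het against WT (limma adjusted p = 0.000146). Ext1, a subunit of the chain polymerase, rose by 1.24 in KO against WT (limma adjusted p = 3.19e-07). The gene of the other subunit, Ext2, fell by 0.80 (limma adjusted p = 4.99e-05). The sulfatase gene Sulf1 was at 0.095 FPKM in WT and 1.49 in KO, a log2 difference of 1.18, and it too passed the filter only through KO. Sulf2 rose by 1.52 in Het against WT (limma adjusted p = 1.61e-07). Of the proteases that cleave laminin or perlecan, 2 were tested. Tll1, a tolloid-like enzyme, was at 0.306 FPKM in WT and 5.22 in KO, a log2 difference of 2.25, and was tested only because its KO libraries passed the filter. In Het against WT its difference of -0.09 (limma adjusted p = 0.358) and that of Bmp1 of 0.32 (limma adjusted p = 0.0803) did not pass.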

How the data were processed

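Per the submitters' processing notes, reads were placed with TopHat2 2.1.0 on GRCm38.p4 and gene levels estimated with Cufflinks 2.2.1. The deposited tables give FPKM (fragments per transcript length and library size) and its interval, as the authors made them, so no count model was used. Absolute depth is unknown. Relative depth was read from the step size of low values. Tables were joined by locus, and FPKM was summed per symbol and then scaled by median ratios of 13981 genes, with factors of 0.941 to 1.043. The log2(FPKM + 1) values of 14940 genes, kept at 1 FPKM in at least 3 libraries, were fitted with limma 3.58.1 (R 4.3.3): 1 mean per group over all 11 libraries, a mean-variance trend, Benjamini-Hochberg adjustment over all tested genes and a threshold of 0.05. The scripts were tested on simulated data.

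GC content came from the longest GENCODE M21 transcript. The correction subtracted a smoothing spline (6 degrees of freedom) of each library's deviation from the mean over all 11 libraries, not from its group mean. Differences between genotypes that follow GC content were therefore subtracted too. The genes followed and the gene lists were chosen with earlier results of these data known. From each list, up to 3 genes past the threshold with the largest difference in KO against WT and up to 2 in Het against WT are named, and where none passed, the 2 most abundant. Some values outside these rules are given for contrast. Neighbours are the 3 genes nearest in their deviation from the WT mean. Some genes that these rules take are not reported here. Alternatives were other scalings, a pseudocount of 0.1, no filter, 1 locus per symbol, fits of the compared groups only or without trend, a replicate block, each library left out, and the GC correction.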

Additional observations from a re-analysis of the deposited data

Results flagged for a closer look

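In Het cells, Itga7, the laminin-binding integrin chain, had 1 library apart: Het replicate 3 was at 8.68 FPKM, and its gap to the nearest other Het library was 0.897 of the group's range, above the critical value of 0.829 for 4 samples. Of 68 pairs of gene and group examined, this was 1, and chance flags about 1 in 20.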

How the results depend on the processing

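Leaving out each library in turn, the number of the followed genes that rose ranged from 4 to 5 in KO against WT, 2 to 4 in Het against WT and 3 to 4 in KO against Het, and the number that fell was 0, 2 and 0 to 1. The number that fell was 1 in KO against WT without the filter (Lama1) and 1 after GC correction (Agrn), and 0 in KO against Het without the filter and 2 after correction. After correction 4 of the followed genes rose in Het against WT and 5 lay below the midpoint (Lama4, Lama5, Lamb1, Lamb2 and Nid1), beside 25.0% and 30.3% of all genes then tested. Signs that turned belonged to differences that had not passed: Lamc1 in KO against Het (-0.0878 without scaling, -0.0515 with upper quartile scaling, -0.0119 after correction), Nid2 in KO against WT (-0.0058 after correction, -0.0117 to 0.2591 with a library left out), Lamb2 in Het against WT (-0.5308 to 0.0022 with a library left out), and, against the midpoint with a library left out, Agrn (-0.0576 to 0.09) and Hspg2 (-0.0786 to 0.2172). Over the single genes, 374 of the values with a library left out kept direction and side of the threshold, 8 lost and 2 gained a call and 12 turned sign; over the other alternatives these numbers were 331, 5, 11 and 4. The cause was not tested.

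Deviations of same-numbered libraries correlated at -0.10 to 0.35, and not every library matched its own number best. Replicate 4 did so in each pair of groups (0.259 in WT and Het, 0.353 in WT and KO, 0.254 in Het and KO). Replicate 1 did so in WT and KO (0.333), and the remaining same-numbered pairs did not. Whether same-numbered libraries share a batch was not tested. With the replicate block, 5 of the followed genes rose in KO against WT, 2 rose and 2 fell in Het against WT, and 4 rose and 1 fell in KO against Het, as without it. Of all genes that passed with the block, 50.6%, 50.2% and 50.2% were higher in these comparisons. The counts are no result about the followed genes as a group. Depth limits Lama1 and Lama4, whose levels lie near the lowest values read.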

Other observations

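Besides Lama1, 4 laminin chain genes stayed under the filter and were not tested. Lama2, the α2 chain of muscle and nerve laminins, averaged 0.0644 ± 0.04 FPKM over the WT libraries and 0.367 ± 0.06 over the Het libraries (SD, n = 4 each), and it was listed at 0 in 2 of 3 KO libraries. Lamb3, the β3 chain of epithelial laminin, averaged 0.684 ± 0.25 FPKM in WT, 0.224 ± 0.07 in Het and 0.199 ± 0.03 in KO (SD, n = 4, 4 and 3). Lama3 averaged 0.0672, 0.205 and 0.150 FPKM in the same order of genotypes, and Lamc3 averaged 0.119, 0.0332 and 0.0448.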
